A study of Mus musculus with 8 samples.

Results

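The liver X receptors (LXRs) and the genes through which they move cholesterol out of macrophages were followed here in macrophages loaded with acetylated low-density lipoprotein (Ac-LDL), a chemically modified LDL that scavenger receptors take up. The set held 8 genes, chosen by symbol: the receptor genes *Nr1h3* (LXRα) and *Nr1h2* (LXRβ), and the target genes *Abca1*, *Abcg1*, *Apoe*, *Apoc2*, *Pltp* and *Mylip*. All 13 probes that the deposited annotation names for these genes were included, of 45281 probes for 30789 gene symbols on the array. Thioglycollate-elicited peritoneal macrophages, cells drawn into the abdominal cavity by an irritant broth, came from C57/BL6 mice aged 8 weeks. They were incubated with 120 µg/ml Ac-LDL or were mock treated, in both cases for 24 h, and each group held 4 arrays described as biological replicates 1 to 4. The sources used here give no donor mouse for any array and no number of animals pooled. The p values thus measure the spread between these 4 arrays per group or, where arrays of the same number are paired, between the differences of the pairs. In the limma fits the spread of each probe is also drawn towards a value shared by all tested probes. The labels name no genotype beyond the strain, and elicited macrophages differ from the resident macrophages of the peritoneum and from plaque macrophages.

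LXRα and LXRβ are nuclear receptors that bind DNA as partners of the retinoid X receptors (RXRs). Oxysterols, which build up when cholesterol is in excess, are among their ligands, and ligand binding replaces corepressors with coactivators at target genes. In macrophages the best known targets encode the sterol transporters ABCA1 and ABCG1, the lipid acceptors apoE and apoC-II, the phospholipid transfer protein, and MYLIP (also called IDOL), an E3 ubiquitin ligase that sends lipoprotein receptors to degradation. The question put to these arrays is which of these genes differ in messenger RNA between lipid-loaded and mock-treated cells, and which of them the array could measure at all.

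On this bead array each gene was read by DNA probes of 50 bases, so that a value reports the stretch of transcript that its probe matches. The probes shown here are the only ones of *Apoe* and *Pltp*, on which the results below turn, and, for contrast, the dim *Apoc2* probe, 1 probe of each receptor gene and the brighter *Mylip* probe, which was never detected. Each is printed 5′ to 3′ as the deposited annotation gives it.
Apoe ILMN_1216042: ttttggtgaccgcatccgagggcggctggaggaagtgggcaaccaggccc
Pltp ILMN_2589401: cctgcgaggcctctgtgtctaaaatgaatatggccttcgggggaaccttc
Apoc2 ILMN_2880540: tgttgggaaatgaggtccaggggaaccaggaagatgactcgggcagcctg
Nr1h3 ILMN_2668472: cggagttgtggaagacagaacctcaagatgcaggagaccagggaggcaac
Nr1h2 ILMN_3085126: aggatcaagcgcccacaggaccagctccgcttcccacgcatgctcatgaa
Mylip ILMN_2590339: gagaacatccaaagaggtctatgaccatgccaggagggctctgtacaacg
The *Apoe* probe starts at base 702 of its transcript and has the highest share of G and C among the 13 probes, 66%. The *Pltp* probe starts at base 570, with 54% G and C. The probe sequences of the other members are not printed.

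Of the 13 probes, 9 probes of 6 genes were detected (detection p of at most 0.05, where a low detection p says that few negative control probes of the array were as bright) on at least 4 of the 8 arrays and were tested. The other 4 probes were detected on none of the 8 arrays, and with them *Abca1* and *Mylip* had no measurement. The single *Abca1* probe (ILMN_1226851) gave signals of 34.5 to 44.3 intensity units, with detection p values of 0.225 to 0.808. The *Mylip* probes gave 39.8 to 51.4 (ILMN_2590339) and 34.9 to 42.9 (ILMN_2735102), and the smallest detection p of either was 0.0502, on the array of Ac-LDL replicate 4. The remaining *Nr1h2* probe, ILMN_2572629, gave 36.7 to 42.9. All 4 lay in the range of undetected probes, whose median was 38 to 40.8 on the 8 arrays, and the lowest detected signal was 48.4 to 53.8 depending on the array. With these probes neither a level nor a difference of *Abca1* or *Mylip* could be read, which does not show that the transcripts were absent. Whether the transcripts were too few or the probes failed to report them was not tested.

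**Figure D1:**
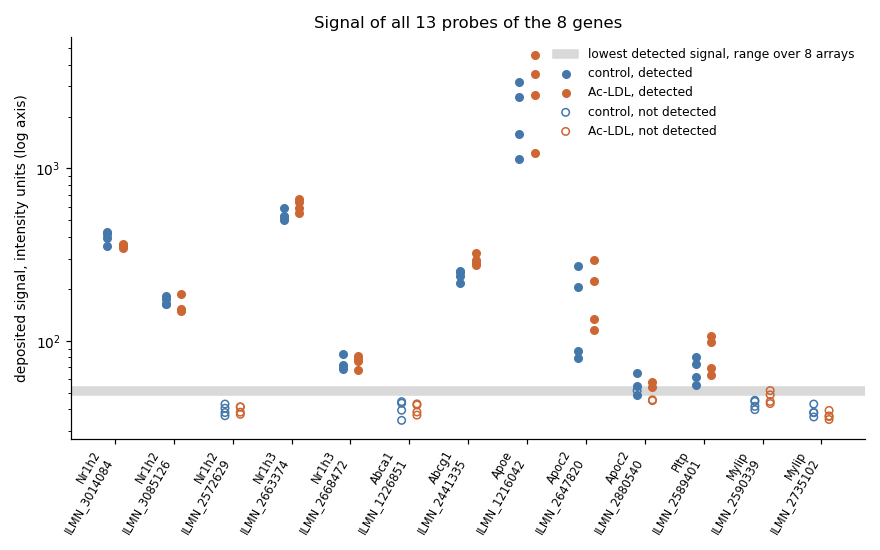
Deposited signal of the 13 probes of the 8 genes on each array (vertical log axis, intensity units), with control arrays in blue and Ac-LDL arrays in orange; filled points were detected and open points were not, and the grey band spans the lowest detected signals of the 8 arrays (48.4 to 53.8). The *Abca1* probe, both *Mylip* probes and 1 *Nr1h2* probe have open points only, and *Apoe* is the brightest, between 1130 and 4530.

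The arrays were of similar quality, with 36.8% to 38.5% of probes detected and a median of 43 or 44 beads behind each signal. Replicates 1 and 2 of both groups lay on slide 1 and replicates 3 and 4 on slide 2, and the slides were parted by a first principal component that held 50.2% of the variance. Among the macrophage markers *Emr1* (F4/80), *Itgam* (CD11b), *Csf1r*, *Cd68*, *Cd14*, *Lyz* and *Msr1*, 6 of 7 genes had a tested probe and *Msr1* was not detected. None of the 6 was called different with Ac-LDL by limma with or without a block, and 0 had an unadjusted p under 0.05 without a block, 2 with the replicate block. Those 2 were *Cd14*, the endotoxin co-receptor, and *Itgam*. *Cd14* differed by -0.48 on the log2 scale and was lower in 4 of 4 pairs (limma adjusted p = 0.960, or 0.0808 with the replicate block), and *Itgam* by 0.35 (0.986 and 0.314). *Cd68* stood at 13.06 ± 0.09 (SD, n = 4) on the control arrays and at 13.08 ± 0.14 (SD, n = 4) with Ac-LDL on the normalized log2 scale. All 4 fibroblast markers were detected (*Col1a1*, *Col1a2*, *Col3a1* and *Dcn*), with a mean level of 10.08 to 10.37 on control and 10.01 to 10.25 on Ac-LDL arrays. The mean level of the 6 macrophage markers was close to this, at 10.36 to 11.18 on control and 10.49 to 11.13 on Ac-LDL arrays. *Dcn* stood at 13.21 on control arrays, near *Cd68*. Of the markers of other leukocytes, *Ms4a1* for B cells, *Lck* for T cells and *S100a8* for neutrophils were tested, and none of eosinophils or mast cells was. No marker of other cells was called by limma. *Col1a2* and *S100a8* had an unadjusted p under 0.05 in both limma fits, and *Col3a1* in that with the replicate block. *Col1a2* differed by -0.23 and *S100a8* by 0.24 on the log2 scale, each without overlap of the groups, and *Col3a1* by -0.21 with overlap. The part that other cells had in the values below was not tested, and in bulk RNA fewer cells of a type and less RNA per cell cannot be told apart.

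Over the 9 tested probes, 7 had a higher and 2 a lower mean with Ac-LDL, where 50.4% of all tested probes had a higher one. None was called by limma without a block (Benjamini-Hochberg adjusted p under 0.05), where 7 of all 17122 tested probes were called, or 0.0409%. An unadjusted p under 0.05 was found for 3 of the 9, against 5.2% of all probes. A fit in which the replicate number was a block compares the Ac-LDL and control arrays of the same number. It called 1 of the 9, the *Apoe* probe, against 0.444% of all probes in either direction and 0.164% upwards, and 5 of the 9 had an unadjusted p under 0.05 in it, against 13.8% of all probes. With the slide as a block none of the 9 was called, against 0.321% of all probes. The study's kind of test, an unpaired equal-variance test on each probe, gave 2 of the 9 below an unadjusted p of 0.05, against 6.07% of all probes, and 0 after adjustment. By the brightest tested probe of each gene, 5 of the 6 genes were higher on the Ac-LDL array in all 4 pairs of the same number, which held for 11.5% of all probes, and their median log2 difference was 0.51, against 0.00 for all probes. All 4 measurable target genes were among these 5, with a median of 0.56.

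**Figure D2:**
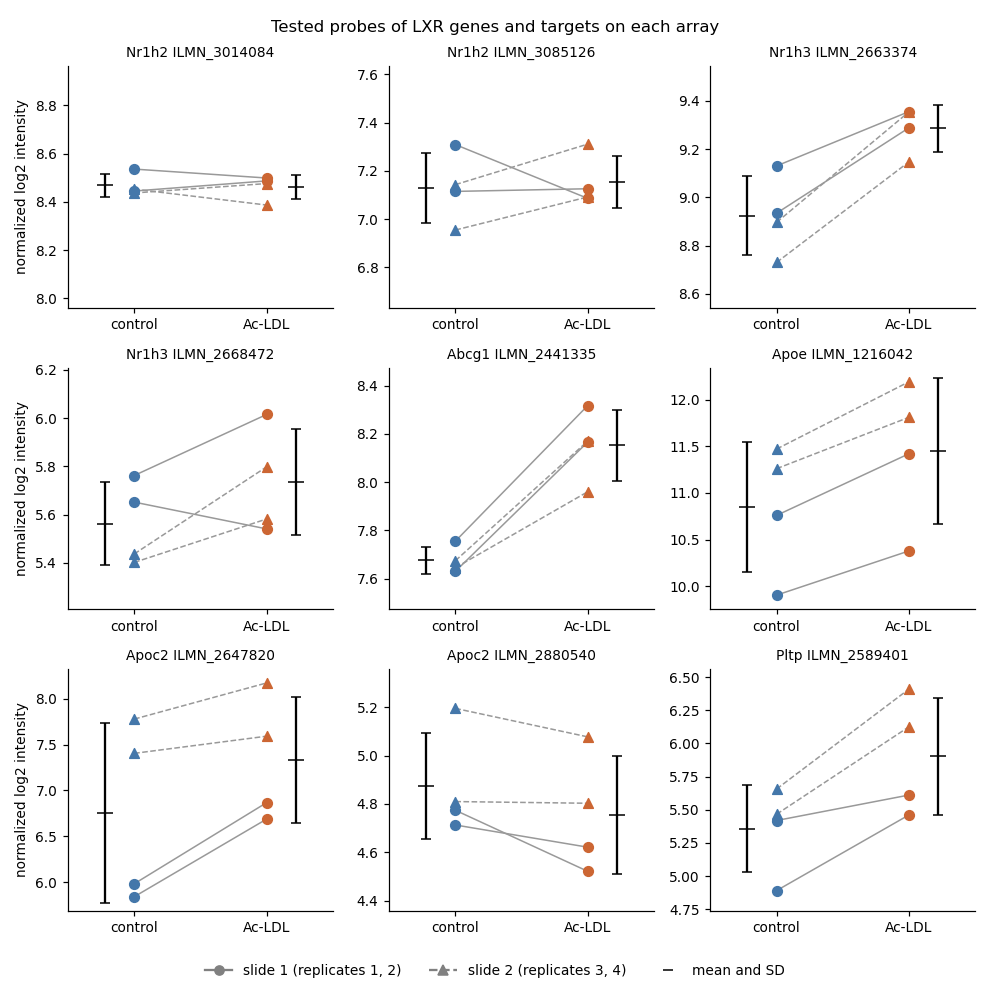
Normalized log2 intensity of the 9 tested probes on each array (each panel with its own vertical scale), with control in blue and Ac-LDL in orange, a line joining the arrays of 1 replicate number, circles for slide 1 and triangles for slide 2, and bars for the mean and SD of the 4 arrays of a group. All 4 lines slope upwards for *Abcg1*, *Apoe*, *Pltp*, the brighter *Nr1h3* probe and the brighter *Apoc2* probe, while the 2 groups part without overlap only for *Abcg1* and the brighter *Nr1h3* probe.

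Neither receptor gene was called. *Nr1h3*, the LXR gene known above all from liver, fat and macrophages, lies on chromosome 2 (91184061 to 91202829, GRCm38.p6). Its brighter probe, ILMN_2663374, read 8.93, 9.13, 8.90 and 8.73 in control replicates 1 to 4 and 9.29, 9.36, 9.35 and 9.15 in Ac-LDL replicates 1 to 4. Every Ac-LDL array was above every control array, a separation upwards that 2.11% of all probes had. The log2 difference was 0.36 (standard error 0.11, 95% interval 0.12 to 0.60), or 1.29-fold, with an exact two-sided permutation p of 0.0286, the smallest that 4 arrays against 4 allow. It was not called by limma over all probes (adjusted p = 0.703). This separation was present with quantile normalization only: in the deposited signals control arrays read 500 to 590 and Ac-LDL arrays 551 to 667 and overlapped, as they did after scaling to the median (log2 difference 0.24) or to the 75th percentile (0.32). The second probe, ILMN_2668472, which lies 1273 bases upstream in the transcript, was far dimmer, with signals of 67.5 to 84.0. It went from 5.56 ± 0.17 (SD, n = 4) to 5.73 ± 0.22 (SD, n = 4), with overlap and with 3 of 4 pairs higher (adjusted p = 0.968 from limma).

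*Nr1h2*, which encodes the more broadly expressed LXRβ, lies on chromosome 7 (44549616 to 44553968). Its brighter probe, ILMN_3014084, read 8.45, 8.54, 8.45 and 8.44 in the control replicates and 8.49, 8.50, 8.39 and 8.48 in the Ac-LDL replicates. The groups overlapped fully and the direction was upwards in 2 of 4 pairs. The log2 difference was -0.01 with a 95% interval of -0.19 to 0.18, so that on this fit a change of the size seen for the brighter *Nr1h3* probe lies outside the interval. The second *Nr1h2* probe, ILMN_3085126, differed by 0.02 (95% interval -0.21 to 0.26), also with overlap. The signs of both differences turned under several settings.

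The difference between the receptors was tested within arrays on the brighter probe of each, after their values were known. The log2 value of the brighter *Nr1h3* probe minus that of the brighter *Nr1h2* probe was 0.46 ± 0.12 (SD, n = 4) on control and 0.82 ± 0.12 (SD, n = 4) on Ac-LDL arrays. This gap, which has no meaning as a ratio of the transcripts because the probes differ, widened by 0.37 in the means and in all 4 pairs, without overlap (exact two-sided permutation p = 0.0286, adjusted p = 0.0571 over the 2 such tests made). After adjustment it did not pass the threshold.

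Of the efflux transporters only *Abcg1* was measurable. *Abcg1* (chromosome 17, 31057694 to 31117984) encodes a half-size ABC transporter that hands cholesterol to high-density lipoprotein particles. Its single probe, ILMN_2441335, starts at base 2 of its transcript by the annotation, which names no chromosome for this probe. It read 7.63, 7.75, 7.65 and 7.67 in the control replicates and 8.17, 8.32, 7.96 and 8.17 in the Ac-LDL replicates. The control arrays were tightly grouped, all Ac-LDL arrays lay above them, and the same separation was present in the deposited signals, 216 to 254 against 275 to 325. Each of these signals had a bead standard error of about 3.48% (the median over the 8 arrays). The log2 difference was 0.48 (standard error 0.10, 95% interval 0.26 to 0.70), or 1.39-fold, and the exact two-sided permutation p was 0.0286. Among all tested probes it was 50th by p and 96th by the size of the increase, and its limma adjusted p was 0.221, or 0.0576 with the replicate block. The difference was 0.55 within slide 1 and 0.41 within slide 2, and the level on slide 2 minus that on slide 1 was -0.10. *Abca1* (chromosome 4, 53030789 to 53159988), which encodes the full-size transporter that loads lipid-poor apolipoprotein A-I, gave no value, so the pair of transporters could not be compared.

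The apolipoprotein and lipid transfer genes varied, by their brightest probes, more between arrays of a group than the genes above, and their differences moved with the setting. *Apoe* (chromosome 7, 19696244 to 19701310) encodes a lipoprotein component that macrophages secrete and that accepts effluxed cholesterol. Its probe read 9.91, 10.76, 11.26 and 11.47 in control replicates 1 to 4, and 10.38, 11.42, 11.81 and 12.19 in Ac-LDL replicates 1 to 4. Both groups spanned more than 1.5 log2 units and overlapped widely, with replicate 1 lowest and replicate 4 highest in each. Within every pair the Ac-LDL array was the higher, by 0.47, 0.66, 0.55 and 0.73.

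The mean log2 difference of *Apoe* was 0.60, or 1.52-fold, and its error depended on whether the pairs were used. Without a block the standard error was 0.41 and the 95% interval -0.31 to 1.51 (limma adjusted p = 0.963, exact two-sided permutation p = 0.314 over unpaired assignments). In the fit with the replicate block the standard error was 0.08 and the interval 0.41 to 0.79, and *Apoe* rose with a limma adjusted p of 0.0261. This call was lost when any 1 of the 4 pairs was left out (adjusted p = 0.064 without replicate 1, 0.0676 without replicate 2, 0.085 without replicate 3 and 0.116 without replicate 4), and with the slide in place of the replicate number as the block (0.342). The difference itself stayed at 0.56 to 0.64 in these subsets and was 0.57 within slide 1 and 0.64 within slide 2. On the slides alone, *Apoe* stood 1.07 higher on slide 2 than on slide 1, more than the difference with Ac-LDL.

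*Apoc2* (chromosome 7, 19671579 to 19677941) encodes the cofactor that activates lipoprotein lipase and lies in the same gene cluster as *Apoe*, with 18302 bases and the genes *Apoc4* and *Apoc1* between them. Its brighter probe, ILMN_2647820, read 5.84, 5.98, 7.40 and 7.78 in control replicates 1 to 4, and 6.69, 6.87, 7.59 and 8.17 in Ac-LDL replicates 1 to 4. Here both slide 1 controls were below every other array, and the Ac-LDL arrays of slide 1 were below the controls of slide 2. The differences within pairs were 0.85, 0.88, 0.19 and 0.39, so that the mean of 0.58 (1.49-fold, limma adjusted p = 0.975, or 0.114 with the replicate block) was made up of 0.86 on slide 1 and 0.29 on slide 2. The second probe, ILMN_2880540, lies 140 bases downstream in the same transcript and did not show this: it went from 4.87 ± 0.22 (SD, n = 4) to 4.76 ± 0.24 (SD, n = 4) and was lower in all 4 pairs (adjusted p = 0.987 from limma). It was detected on 5 of the 8 arrays, with signals of 44.9 to 65.0, and at the stricter detection p of 0.01 on 2 of 8. Whether the probes differed in their response was tested within arrays, and the change of 0.70 in the difference between them was higher in 4 of 4 pairs but did not pass (exact two-sided permutation p = 0.257, also after adjustment over 2 tests). *Apoc1* and *Apoc4*, the neighbours, had no tested probe.

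*Pltp* (chromosome 2, 164839518 to 164857708) encodes the phospholipid transfer protein, which remodels high-density lipoproteins. Its probe was dim, with signals of 55.7 to 106, and detected on all 8 arrays at a detection p of 0.05 and on 7 at 0.01. It read 4.89, 5.42, 5.47 and 5.66 in the control replicates and 5.46, 5.61, 6.13 and 6.41 in the Ac-LDL replicates. The 2 highest values were Ac-LDL arrays of slide 2, the lowest was a control array of slide 1, and the groups overlapped. The log2 difference was 0.54 (standard error 0.23), or 1.46-fold, higher in 4 of 4 pairs, with a limma adjusted p of 0.907, or 0.0802 with the replicate block, and an exact two-sided permutation p of 0.171. The size moved with the treatment of background, to 0.30 without background correction and 0.33 with an offset of 50. With the block it was called when replicate 2, the pair with the smallest difference (0.19), was left out (adjusted p = 0.0347), and with median scaling in place of quantile normalization (0.0101).

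**Figure D3:**
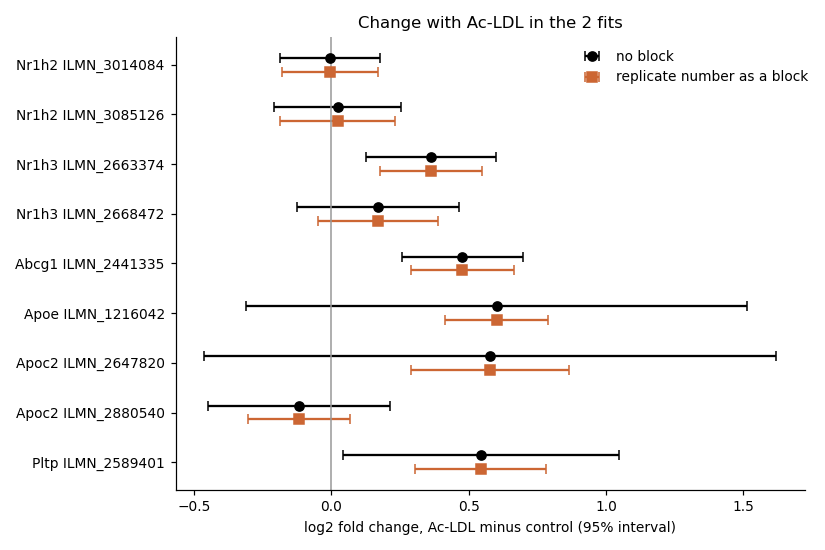
Log2 fold change (Ac-LDL minus control, horizontal axis) of the 9 tested probes with the 95% interval of the fit without a block (black) and of that with a replicate block (orange). The block narrows the interval of *Apoe* from -0.31 to 1.51 to 0.41 to 0.79 and leaves those of the *Nr1h2* probes around 0.

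*Apoe*, *Apoc2* and *Pltp* shared a second feature that the choice of genes did not use: all 3 had a higher mean on slide 2 than on slide 1, by 1.07, 1.39 (brighter probe) and 0.57, where 47.3% of all tested probes did. For the brightest probes of *Abcg1*, *Nr1h3* and *Nr1h2* the same difference was -0.10, -0.14 and -0.05. Only for *Apoc2* did the 4 arrays of slide 2 lie entirely above those of slide 1, as they did for 10.7% of all tested probes. The macrophage markers *Emr1*, *Itgam*, *Csf1r* and *Cd14* were also higher on slide 2, by 1.19, 1.01, 0.79 and 0.58, while *Cd68* and *Lyz* differed between the slides by 0.06 and 0.04. With Ac-LDL, *Emr1* differed by 0.20, *Itgam* by 0.35, *Csf1r* by -0.02 and *Cd14* by -0.48 in the means (limma adjusted p of 0.992, 0.986, 0.998 and 0.960). The slide carries different replicates as well as a different hybridization, which cannot be told apart. The part of the macrophage markers in the differences of *Apoe*, *Apoc2* and *Pltp* was not tested.

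**Figure D4:**
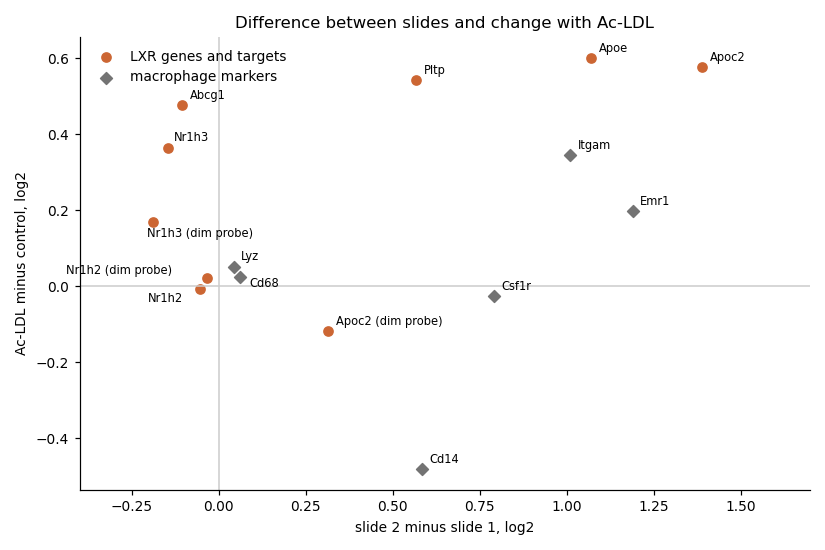
Difference between slides (slide 2 minus slide 1, horizontal axis, log2) and with Ac-LDL (vertical axis, log2) for the 9 tested probes of LXR genes and targets (orange circles) and 6 macrophage markers (grey diamonds), where "dim probe" marks the less bright tested probe of a gene. *Apoe*, *Pltp* and the brighter *Apoc2* probe lie to the upper right, *Abcg1* and *Nr1h3* to the upper left, and the markers *Emr1*, *Itgam*, *Csf1r* and *Cd14* to the right, *Cd14* at -0.48 with Ac-LDL and the other 3 between -0.02 and 0.35.

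*Mylip* (chromosome 13, 45389742 to 45411940) was not measurable, but *Vldlr* and *Lrp8*, which encode receptors that its protein marks for degradation, were. By their brightest probes both were lower on the Ac-LDL array in all 4 pairs, which held for 10.4% of all probes, while the other tested *Vldlr* probes were lower in 2 and 3 of 4. *Lrp8*, the apoE receptor 2, fell with the replicate block by 0.65 on the log2 scale (adjusted p = 0.0395 with the block and 0.818 without). Its probe was dim, at 5.76 on control and 5.11 on Ac-LDL arrays, and was detected on 3 of the 4 Ac-LDL arrays. The other *Lrp8* probes were detected on no array, so that the fall rests on 1 probe near the detection limit. The difference of *Vldlr*, the very-low-density lipoprotein receptor, was -0.14 (0.488 and 0.987). These are messenger RNA values that carry no measure of receptor protein.

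Outside the 8 genes, further LXR targets from a list of general knowledge were mixed. Of 15 genes with a probe, 9 had a tested one, 7 with a higher and 2 with a lower mean, and their median log2 difference was 0.26. A higher mean was found for 50.4% of all tested probes. Of the 9, 5 were higher and 2 lower in 4 of 4 pairs, against 11.5% and 10.4% of all probes. Without a block 6 of the 9, both lower genes among them, had an unadjusted limma p under 0.05, against 5.2% of all probes. *Scd1*, the stearoyl-CoA desaturase, fell by 1.30 (limma adjusted p = 0.0324) and was the only one called without a block. With the replicate block *Acsl3*, an acyl-CoA synthetase, fell by 1.12 (0.0445 with the block and 0.0732 without) and *Mertk*, a receptor for apoptotic cells, rose by 0.56 (0.0364 and 0.817). With the slide as the block *Acsl3* was called (limma adjusted p = 0.0323) and *Mertk* was not (0.166). A second, dimmer *Mertk* probe, ILMN_2491355, was 0.20 higher and was not called (0.427 with the replicate block and 0.987 without). *Scd1* and *Acsl3*, the 2 that went down, act in fatty acid metabolism, and *Scd1* is also a known SREBP target. *Tgm2*, transglutaminase 2, was 0.26 higher without overlap of the groups (limma adjusted p = 0.854). *Srebf1*, which encodes SREBP-1, differed by 0.05 (0.993), on a dim probe at 4.93 on control and 4.98 on Ac-LDL arrays. This probe was detected on 7 arrays, but on only 1 at the stricter detection p, and the other *Srebf1* probe was detected on no array. So close to the detection limit, the value cannot show that *Srebf1* was unchanged. *Abcg4*, *Abcg5*, *Abcg8*, *Apoc1*, *Apoc4* and *Cd5l* had no tested probe.

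The partners and ligand enzymes of the receptors gave 1 call in all, with the replicate block. Of the RXR genes and corepressors, *Rxra*, *Rxrb* and *Ncor1* were tested, with log2 differences of 0.07, 0.00 and 0.05, and none was below an unadjusted p of 0.05 in either limma fit, while the *Rxrg* probe was not detected. Among 4 tested enzymes that make or use oxysterols, *Ch25h*, the cholesterol 25-hydroxylase, fell with the replicate block by 0.85 (adjusted p = 0.00895 with the block and 0.887 without) in 4 of 4 pairs. With the slide as the block *Ch25h* was not called (limma adjusted p = 0.11). Its groups overlapped, and its level on slide 2 minus that on slide 1 was -0.90. *Cyp27a1*, the sterol 27-hydroxylase, was 0.31 higher (0.196 with the replicate block and 0.961 without a block).

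Of other genes of sterol transport, *Npc1*, *Npc2* and *Abca7* had differences of 0.07, -0.10 and 0.07 by their brightest probes, with 0 called and 0 below an unadjusted p of 0.05 in either limma fit. Dimmer probes of *Abca7* and *Npc1* went the other way. The *Abca7* probe ILMN_2896639 differed by -0.51 without overlap and was called with the slide block (adjusted p = 0.0488), not with the replicate block (0.0521) or without a block (0.332). The *Npc1* probes ILMN_1247075 and ILMN_1250418 differed by -0.19 and -0.23 and were not called (0.987 and 0.946 without a block). Targets of SREBP-2, the factor that turns on sterol synthesis and uptake when sterol is low, some of which the study picked out on these same arrays, stand on the opposite arm of sterol control. By their brightest probes all 5 genes tested were lower in 4 of 4 pairs without overlap, which held for 1.68% of all probes, with a median log2 difference of -1.41, and 1 was called without a block, 4 with either block. *Fdps*, a farnesyl diphosphate synthase, fell by 1.69 (limma adjusted p = 0.0280). The median difference of the 4 measurable LXR targets, 0.56, was thus less than that of the SREBP-2 targets in size, which is a description of these lists and not a test between them.

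**Figure D5:**
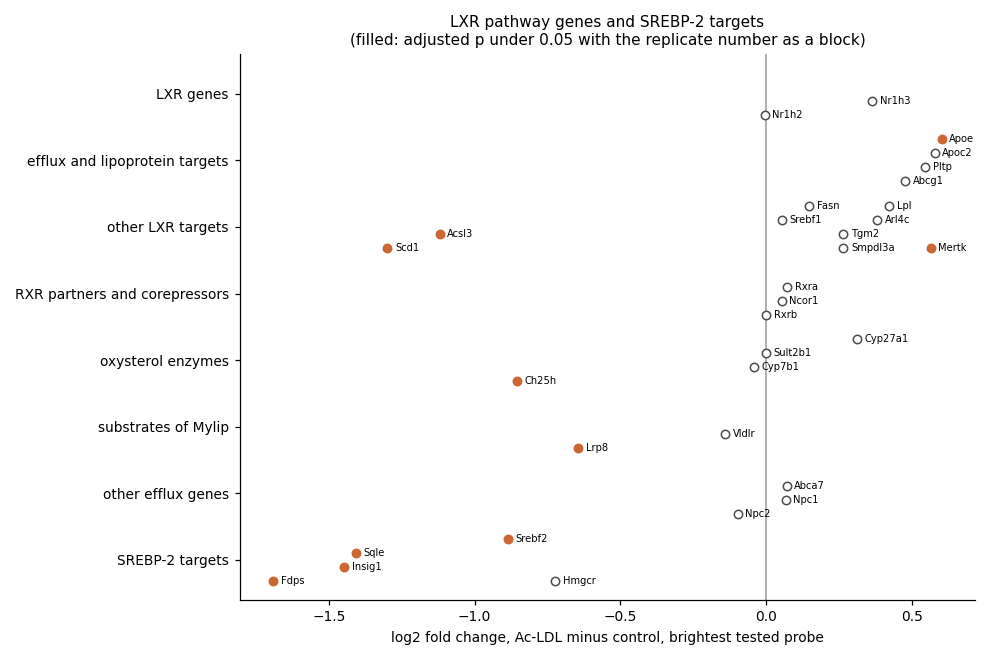
Log2 fold change (Ac-LDL minus control, horizontal axis) of the brightest tested probe of each gene in 8 lists; filled points have an adjusted p under 0.05 in the fit with the replicate block. *Apoe* is the only filled point among the 6 measurable LXR genes and efflux or lipoprotein targets, and 4 of the 5 SREBP-2 targets on the lower left are filled.

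The promoter windows of the genes were searched on both strands for the element to which LXR and RXR bind together (DR4), the hexamer AGGTCA, a spacer of any 4 bases and AGGTCA again. RefSeq windows (GRCm38.p6) of 300 bases, 250 before and 50 after a transcript start, were at hand for 7 of the 8 genes, all but *Abcg1*. Sites outside these windows were not searched. No window held all 12 letters of the hexamers. *Abca1* had the closest match, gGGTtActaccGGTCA, where capitals mark the 9 letters of 12 that match, at chr4:53159947-53159962 on the plus strand, in a window of a gene on the minus strand. A match of at least 9 letters was present in 21.9% of all 32851 windows, and the 8 letters reached by *Nr1h2*, *Nr1h3*, *Apoe* and *Apoc2* in 76.9%. Near matches in these windows are thus common, and the count of letters alone cannot tell a bound site from an unbound one. Binding at these sites was not tested.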

How the data were processed

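RNA of 8 cultures was hybridized to Illumina Mouse WG-6 v2.0 bead chips and read with BeadStudio, per the labels (version not given in the sources used here). The deposited intensity of each probe is the mean over its beads, neither background-subtracted nor normalized by the authors, and the type of normalization they later used was not given in the sources used here. Beside it the authors deposited a detection p-value, whose steps imply 936 negative controls, a bead standard error (read as a score) and a bead count. No per-sample column was left out.

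The normexp model of limma 3.58.1 (R 4.3.3) removed background, taking the negative controls from the detection p-values, and left an offset of 16. Arrays were then quantile normalized and put on the log2 scale. Probes with a detection p of at most 0.05 on at least 4 of 8 arrays were tested (17122 probes, 12423 symbols) by lmFit and eBayes with the group alone, with Benjamini-Hochberg adjustment over all of them and a call at an adjusted p under 0.05. Single probes were also tested over all 70 assignments of arrays. Fits with blocks, other normalizations, filters and arrays left out were alternatives. The procedure was tested on simulated data. The number of arrays limits the precision, and fold changes of dim probes are understated by the offset.

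Whether replicate numbers pair the arrays was checked from the deviations of arrays from their group means. Same-numbered control and Ac-LDL arrays correlated at 0.579, 0.479, 0.468 and 0.629, different numbers of 1 slide at 0.188 to 0.447, and arrays of different slides at -0.318 or below. Deviations cancel within a group, so positive correlations within slides bring negative ones across slides, which are no further evidence. The contrast that bears on pairing, within a slide, was narrow for control replicate 3 (0.468 against 0.447). The number was treated as pairing the arrays, partly through the slide. The labels say nothing of what a number shares.

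All probes of the 8 genes are named. A gene with several probes is given by its brightest tested probe, and of each further list up to 4 genes are given, called ones first and then those with the lowest p, plus a few chosen after their values were seen (*Srebf1* and the cell type markers given with values). Some genes of the lists are not reported here and were left out of the counts. The members and lists were chosen with earlier results of these data known. Gene coordinates and promoter windows are from RefSeq (GRCm38.p6). Probe coordinates were not used, as the annotation names no build for them.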

Additional observations from a re-analysis of the deposited data

Results flagged for a closer look

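In the 18 groups of 4 arrays formed by the 9 tested probes, 1 array lay far from the other 3 of its group by Dixon's criterion, where 5% of groups, or 0.9, would by chance. It was control replicate 2 for the brighter *Nr1h2* probe, at 8.54 against 8.44 to 8.45 in the other control arrays, a gap of 0.831 of the whole range. Without that array the log2 difference of *Nr1h2* was 0.02 in place of -0.01, with a limma adjusted p of 0.999.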

How the results depend on the processing

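Over 28 settings, or 27 for the dimmest probes, the differences of *Abcg1* (0.36 to 0.55), *Nr1h3* (0.24 to 0.44, brighter probe), *Apoe* (0.29 to 0.96), *Apoc2* (0.27 to 0.92, brighter probe) and *Pltp* (0.30 to 0.71) kept their direction. No member was called in any fit without a block or in that with the slide block. With the replicate block 1 was called, and 0 to 1 with 1 pair left out. The block together with another normalization, chosen after seeing the data, called 4 without background correction (*Nr1h3*, *Abcg1*, *Apoe* and *Apoc2*), the same 4 with an offset of 50, 3 with median scaling (*Apoe*, *Apoc2* and *Pltp*) and 1 with a shift to the 75th percentile (*Apoe*). Among all probes 7 were called, 14.3% of them higher with Ac-LDL. The count was 76 with the replicate block (41, 60, 12 and 6 without replicate 1, 2, 3 or 4), 55 with the slide block, 26 with median scaling (3.85% higher), 14 with the 75th percentile, 16 with a trended robust prior, 0 without a detection filter, 0 with the study's kind of test (1039 below an unadjusted p of 0.05) and 0 to 15 with 1 array left out (0 without Ac-LDL replicate 1, 2 or 3 or control replicate 4, 1 without Ac-LDL replicate 4 and 15 without control replicate 2). Under the block, 36.8% of the calls were higher; the count was 289 without background correction (53.6% higher), 250 with an offset of 50 (52.4%), 557 with median scaling (14.9%) and 91 with the 75th percentile. The signs of the *Nr1h2* differences turned. ILMN_3085126 was at -0.082 with median scaling, with or without the block, at -0.025 and -0.014 with the block and without replicate 3 or 4, at -0.106 within slide 1, and between -0.035 (without control replicate 4) and 0.083 with 1 array left out. ILMN_3014084 was at 0.0048 and 0.015 with the block and without replicate 2 or 3, at 0.0027 within slide 1, and between -0.018 and 0.020 (without Ac-LDL replicate 3) with 1 array left out. The causes were not tested.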

Other observations

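The genes whose pattern over the 8 arrays was most like that of *Abcg1*, each probe centred on its own mean, were *Abhd12*, *Gpr35*, *Elmo2*, LOC385865 and *Suclg2*, with root mean square differences from it of 0.0955, 0.108, 0.113, 0.113 and 0.114 on the log2 scale, where the median over all tested probes was 0.309. As they were chosen for likeness to *Abcg1* on the same arrays, their higher means with Ac-LDL follow from the choice. *Abhd12*, which encodes a serine hydrolase, had a mean of 8.57 in control and 8.96 in Ac-LDL-treated cells, and *Elmo2* of 6.86 and 7.22. *Gpr35*, LOC385865 and *Suclg2* were dim, with means of 4.49 to 4.71 in control and 4.99 to 5.03 in Ac-LDL-treated cells. The undetected *Mylip* probe ILMN_2590339 had a control mean of 4.44. Probes this dim can pass the detection filter through a single group, and the part of the filter in their likeness to *Abcg1* was not tested. *Abca1* could not be used for such a comparison, as it had no tested probe.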
